A study of Mus with 21 samples.

Results

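A list of 10 genes of contractile cells was followed in mouse skin wounds on Day 4, in all 21 RNA-seq libraries of the study. The genes were chosen by symbol, and the list holds the gene of the α-SMA stain (Acta2) beside others of myofibroblasts, vessel smooth muscle and pericytes. The 10 genes are Acta2, Actg2, Myh11, Myl9, Tagln, Cnn1, Tpm2, Lmod1, Rgs5 and Postn, of 18806 genes counted, and all 10 passed the filter on low counts in every comparison. No measured value entered the choice of this list, but earlier results of these data were known when it was written.

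The mice were wild-type C57BL/6 females, aged 8 weeks, with a full-thickness wound of 8 mm diameter at each side of the back. A splint was sutured around each wound, which limits its contraction. The control wounds held no hydrogel, and the other 6 groups were filled with a gelatin methacryloyl (GelMA) hydrogel of pH 6.4, 7.4 or 8.4 that carried acidic or basic fibroblast growth factor (aFGF or bFGF). The groups are named by pH and growth factor, such as 6.4-GelMA/aFGF, and each holds 3 libraries. The paper describes groups of 3 mice, with wounds at both sides of each back and sacrifice on several days. Which mouse and which wound gave each library is not stated. Libraries of a group could thus share a mouse, while the main tests treat the libraries as independent. No group had a hydrogel without a growth factor, so hydrogel, pH and growth factor cannot be told apart against the control.

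In a healing wound, fibroblasts under tension and TGF-beta turn into myofibroblasts, which build actin stress fibres with α-SMA and pull the edges together. The same actin is abundant in the smooth muscle around vessels and hair follicles, so Acta2 by itself does not tell these cells apart. Mature smooth muscle also holds the smooth muscle myosin heavy chain (Myh11), leiomodin and calponin. Pericytes are marked by Rgs5, and activated fibroblasts lay down matrix with periostin (Postn). In these bulk samples, fewer cells of a type and less RNA per cell cannot be told apart.

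Total counts ranged from 34362558 to 37817833 per library. Levels are given as CPM, counts relative to the TMM-scaled library size, which compare 1 gene between libraries. Between genes, levels are compared per length as FPKM (fragments scaled to gene length and library size), which the authors deposited. The summed level of 10 keratinocyte genes was 3027 to 8110 CPM, with none of them at 0 in any library. Genes of organs outside the skin were seen in 3 libraries. Of 16 ovary and oviduct genes, 15 were highest in 8.4-GelMA/bFGF replicate 2, where they summed to 1059 CPM against 9.79 to 26.1 CPM elsewhere. All 12 cartilage and bone genes were highest in 7.4-GelMA/aFGF replicate 3 (488 CPM in sum, 4.06 to 11.9 CPM elsewhere). Of 10 liver genes, 8 were highest in 8.4-GelMA/aFGF replicate 2 (251 CPM in sum, 1.61 to 62.4 CPM elsewhere). The fold changes of Myh11 and Actg2 at pH 8.4, the interaction of Myh11 and the count of correlated pairs are given with and without them. Other results include these libraries unless stated.

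Per length, Postn was the most abundant of the 10 genes, with a median of 275 FPKM over the 21 libraries. Tpm2 followed at 124 FPKM, Acta2 at 74.9 FPKM, Tagln at 72.5 FPKM, Myl9 at 43.6 FPKM and Rgs5 at 30.1 FPKM. The genes of mature smooth muscle were far lower, with Actg2 at 5.09 FPKM, Myh11 at 4.78 FPKM, Cnn1 at 3.66 FPKM and Lmod1 at 1.10 FPKM. Acta2 was above Tagln in 18 of 21 libraries, and Tagln was above Myl9 and Myl9 above Rgs5 in 21 of 21. Actg2 and Myh11 were close neighbours, with Actg2 above Myh11 in 17 of 21 libraries.

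Acta2 encodes α-SMA, the actin of the study's stain. It was at 318, 164.5 and 293 CPM in the control libraries. With aFGF it was at 253, 298 and 215 CPM at pH 6.4, at 153, 189 and 192 CPM at pH 7.4, and at 231, 214 and 182 CPM at pH 8.4. With bFGF it was at 311, 345 and 159 CPM at pH 6.4, at 225, 199 and 186 CPM at pH 7.4, and at 261, 256 and 318 CPM at pH 8.4. The highest library was 2.26-fold above the lowest, and neither end belonged to 6.4-GelMA/aFGF. By mean CPM the order was 8.4-GelMA/bFGF, 6.4-GelMA/bFGF, control, 6.4-GelMA/aFGF, 8.4-GelMA/aFGF, 7.4-GelMA/bFGF and 7.4-GelMA/aFGF. All 6 pairs of neighbours in that order overlapped.

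The study asked of its stain whether 6.4-GelMA/aFGF stood above the other groups. For the transcript, the mean log2 CPM of Acta2 was 7.98 ± 0.23 (SD, n = 3) in 6.4-GelMA/aFGF and 7.82 ± 0.38 (SD, n = 18) in the other libraries. The difference of 0.17 was within the spread between libraries, with a two-sided exact permutation p of 0.477 over 1330 assignments. It was 0.05 without 6.4-GelMA/aFGF replicate 2 and 0.28 without replicate 3 of that group. In edgeR's fit over the 7 groups, the log2 fold change of Acta2 was 0.16, with a 95% confidence interval from -0.24 to 0.56 (adjusted p = 0.983). To be called, a gene needed an adjusted p (Benjamini-Hochberg, over all genes tested) under 0.05 as well as a fold change of more than 0.58 on the log2 scale, up or down. None of the 10 genes was called in this comparison, with 0 of 15811 genes called in all (0%) and 0 of the 10 genes at an unadjusted p under 0.05, against 895 genes overall. DESeq2 called 0 of the 10 genes and 9 genes in all. The other 9 genes had log2 fold changes from -0.23 (Postn) to 0.19 (Actg2).

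Against 7.4-GelMA/aFGF, the group that the study's own sequencing comparison used, all 10 genes were on the higher side in 6.4-GelMA/aFGF, and none was called. The log2 fold change was 0.53 for Acta2 (95% confidence interval 0.15 to 0.91), 0.45 for Tagln (0.13 to 0.77) and 0.48 for Myl9 (0.03 to 0.93), each with an adjusted p of 0.832 in edgeR. Any 1 of the 6 libraries was left out in turn, among them the 1 with cartilage and bone genes. The values were then 0.39 to 0.63 for Acta2, 0.33 to 0.53 for Tagln and 0.35 to 0.64 for Myl9. An unadjusted p under 0.05 was found for these 3 genes and for 750 of 15019 genes in all, while 0 genes were called by edgeR (0%) and 20 by DESeq2, which called 0 of the 10. Acta2 and Tagln were higher in each 6.4-GelMA/aFGF library than in any 7.4-GelMA/aFGF library, which held for 840 of 15811 genes (5.31%). For the same pH contrast with bFGF, the log2 fold change was 0.435 for Acta2 (-0.25 to 1.12) and 0.32 for Myl9 (-0.43 to 1.06). Tagln was at -0.19 there (-0.83 to 0.46). With aFGF, the median log2 fold change of the 10 genes was 0.45, beside 0.02 over all genes tested. Genes of the myofibroblast matrix were on the same side, with 20 of 21 above 0, a median of 0.38 and 0 at an unadjusted p under 0.05. They summed to 69120, 68630 and 47910 CPM in 6.4-GelMA/aFGF and to 44400, 52420 and 51350 CPM in 7.4-GelMA/aFGF, so the groups overlapped. With bFGF, 20 of 21 were also above 0 for this pH contrast (median 0.47, 2 under 0.05). Col3a1, Col1a1, Col1a2 and Sparc are the most abundant of that list. With aFGF, vessel smooth muscle and pericyte genes were above 0 for 14 of 18 (median 0.28, 0 under 0.05). Their sums overlapped, at 739, 822 and 526.5 CPM in 6.4-GelMA/aFGF and 511.5, 551 and 668 CPM in 7.4-GelMA/aFGF. Other genes of the contractile apparatus were above 0 for 16 of 20 (median 0.15, 2 under 0.05). Endothelial genes were above 0 for 10 of 10 (median 0.38, 1 at an unadjusted p under 0.05) and adipocyte genes for 8 of 8 (median 0.95, 2 under 0.05), while macrophage genes were below 0 for 9 of 10 (median -0.11). The 10 endothelial genes summed to 1241, 1326 and 711.5 CPM in 6.4-GelMA/aFGF and to 828, 840 and 1027 CPM in 7.4-GelMA/aFGF, and the 8 adipocyte genes to 4123, 4929 and 1460 CPM and to 2334, 1690 and 1185 CPM, so the groups overlapped for both lists. None of these lists held a called gene, and the part of other cells in the values was not tested.

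**Figure D1:**
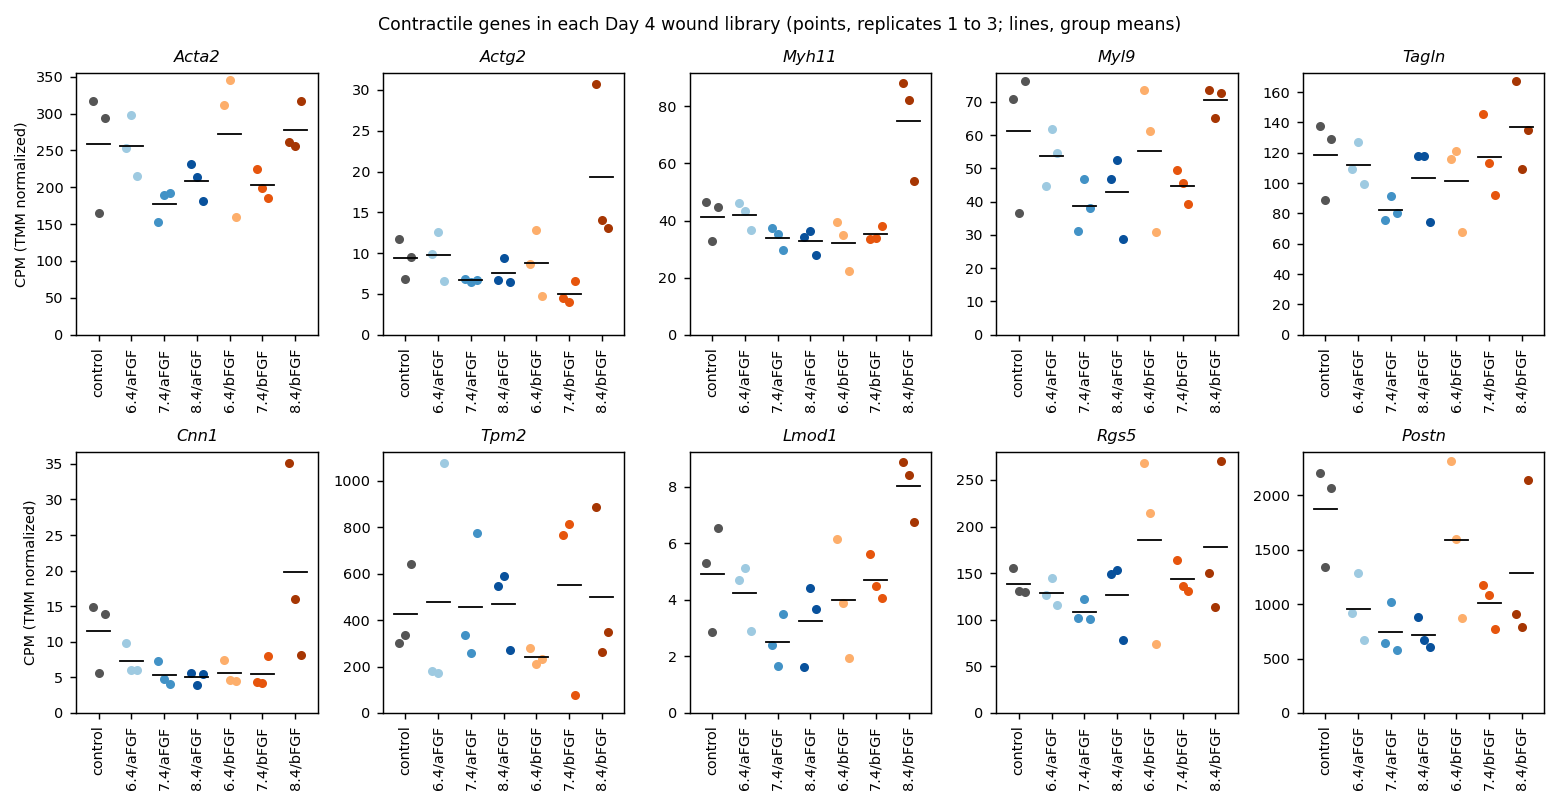
CPM of the 10 genes in each library, with 1 panel per gene and a vertical axis that starts at 0. Points are replicates 1 to 3 of each group from left to right, and lines are group means. Myh11 was at 53.9 to 88.3 CPM in 8.4-GelMA/bFGF and at 46.4 CPM or lower elsewhere, while for Acta2 each group overlapped with its neighbours in the order of means.

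The highest group mean was in 8.4-GelMA/bFGF for 7 of the 10 genes, which were Acta2, Tagln and Myl9 as well as Myh11, Actg2, Lmod1 and Cnn1 of mature smooth muscle. For Acta2, Tagln, Myl9 and Cnn1 that group overlapped with the next in order. Myh11, the heavy chain of smooth muscle myosin, was at 88.3, 82.3 and 53.9 CPM in 8.4-GelMA/bFGF. It was at 46.4, 32.7 and 44.8 CPM in the controls, and the 18 libraries of the other groups reached from 22.3 to 46.4 CPM. In the group next in order, 6.4-GelMA/aFGF, Myh11 was at 46.1, 43.4 and 36.7 CPM. The 3 libraries of 8.4-GelMA/bFGF were thus above all others, and the other 6 groups overlapped with their neighbours.

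Actg2, the γ-actin of enteric and other smooth muscle, was at 30.7, 14.1 and 13.1 CPM in 8.4-GelMA/bFGF. Elsewhere it was at 4.03 to 12.8 CPM, with controls at 11.7, 6.79 and 9.52 CPM. Lmod1, a leiomodin that nucleates actin filaments in smooth muscle, was at 8.89, 8.42 and 6.76 CPM in 8.4-GelMA/bFGF and at 1.61 to 6.55 CPM elsewhere. Both genes were above all the other 18 libraries, although by a small margin in the lowest library of the group. Being above all the other 18 libraries held for 3 of the 10 genes (Myh11, Actg2 and Lmod1), and for 32 of 15811 genes in all (0.202%). This pattern was picked out after the values were seen.

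Cnn1, a calponin that binds actin and slows its myosin, was at 35.2, 16.0 and 8.09 CPM in 8.4-GelMA/bFGF. It was at 14.9, 5.58 and 13.9 CPM in the controls, at 9.88, 6.00 and 6.08 CPM in 6.4-GelMA/aFGF, and at 3.96 to 8.01 CPM in the other 12 libraries. A single library, 8.4-GelMA/bFGF replicate 1, carried the highest Cnn1, Actg2, Myh11, Lmod1 and Tagln of the series. The lowest 8.4-GelMA/bFGF library for Cnn1 lay below 2 of the 3 controls.

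Over the 7 groups, edgeR's test for any difference called none of the 10 genes, and 18 of 15811 genes in all (0.114%). The adjusted p was 0.063 for Myh11, 0.111 for Actg2 and Cnn1, 0.185 for Postn and 0.223 for Lmod1, and 0.352 or more for the other 5 genes. Myh11, Actg2, Cnn1, Postn and Lmod1 had an unadjusted p under 0.05, as did 3055 of all genes (19.3%). DESeq2 with its default settings called these 5 genes, among 2050 genes in all.

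At pH 8.4, all 10 genes were lower with aFGF than with bFGF in their fitted fold changes. The log2 fold change (aFGF over bFGF) was -1.96 for Cnn1 (95% confidence interval -3.18 to -0.73), -1.34 for Actg2 (-2.21 to -0.47), -1.29 for Lmod1 (-2.18 to -0.41) and -1.17 for Myh11 (-1.67 to -0.67). None of them was called, with edgeR adjusted p-values of 0.132, 0.137, 0.143 and 0.0945, and 1 of 15041 genes was called in all (0.00665%). Genes that myofibroblasts share had smaller values, with -0.70 for Myl9 (adjusted p = 0.168), -0.39 for Acta2 (0.195) and -0.38 for Tagln (0.383). Tpm2 had a log2 fold change close to 0, with a 95% confidence interval from -1.26 to 1.13. The pericyte gene Rgs5 was at -0.46 (adjusted p = 0.504) and Postn at -0.81 (0.286), with intervals that include 0. Without 8.4-GelMA/bFGF replicate 3, Rgs5 was at -0.03 and Postn at -0.23. Tagln was at -0.18 without 8.4-GelMA/aFGF replicate 3 and at -0.23 without 8.4-GelMA/bFGF replicate 1.

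Of the 10 genes, 6 (Acta2, Cnn1, Myh11, Myl9, Actg2 and Lmod1) had an unadjusted p under 0.05 at pH 8.4, beside 3180 of all genes (21.1%). For Acta2 this p moved with the fit. In edgeR it was 0.030, but 0.139 in the fit of all 21 libraries and 0.078 with a replicate block. It was 0.073 in edgeR without the libraries that held genes of other organs, and 0.015 in DESeq2. The same 6 genes were higher in each 8.4-GelMA/bFGF library than in any 8.4-GelMA/aFGF library, which held for 2121 of 15811 genes (13.4%). With DESeq2's default settings, Cnn1, Myh11, Actg2 and Lmod1 were called, among 955 genes in all. When the mean log2 CPM of 15 skeletal muscle genes was added to edgeR's fit, Myh11 was called at a log2 fold change of -1.14 (adjusted p = 0.0477), among 231 genes in all.

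Values of other tissues and cells are set beside this result. The ovary and oviduct genes were in replicate 2 of 8.4-GelMA/bFGF. This library held Myh11 at 82.3 CPM, Lmod1 at 8.42 CPM, Actg2 at 14.1 CPM and Cnn1 at 16.0 CPM. Replicate 1, with 10.9 CPM of ovary and oviduct genes, held them at 88.3, 8.89, 30.7 and 35.2 CPM. Pearson's r with the mean log2 CPM of the ovary and oviduct list was 0.52 for Myh11, 0.35 for Cnn1, 0.32 for Lmod1 and 0.25 for Actg2 over the 21 libraries. Without replicate 2, the log2 fold change was -1.09 for Myh11, -1.52 for Actg2, -2.09 for Cnn1 and -1.25 for Lmod1. Without the libraries that held genes of other organs, it was -1.17 for Myh11 and -1.71 for Actg2. Without replicate 1, it was -0.85 for Actg2 and -1.26 for Cnn1, against -1.05 for Myh11. The 8 adipocyte genes summed to 3629, 2402 and 949 CPM in 8.4-GelMA/bFGF and to 2756, 1306 and 1600 CPM in 8.4-GelMA/aFGF, with none at 0. The 10 hair follicle genes summed to 52.7, 30.1 and 65.1 CPM in 8.4-GelMA/bFGF and to 34.6 CPM or less in the libraries of 8.4-GelMA/aFGF, with 2 or 3 genes at 0 in each library. With aFGF, 10 of 10 macrophage genes were above 0 (median log2 fold change 0.50, 2 at an unadjusted p under 0.05) and so were 8 of 8 neutrophil genes (median 0.89, 1 under 0.05). Endothelial genes were below 0 for 10 of 10 (median -0.24, 2 under 0.05) and adipocyte genes for 8 of 8 (median -0.43, 0 under 0.05). The summed levels overlapped between the groups for each of these 4 lists, and none of the 4 held a called gene or a gene at 0. Macrophage genes summed to 5370 to 9203 CPM with bFGF and to 7815 to 11750 CPM with aFGF, neutrophil genes to 3688 to 9677 CPM and 4806 to 11220 CPM, and endothelial genes to 854 to 1394 CPM and 920 to 994 CPM. The part of these tissues and cells in the result was not tested.

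**Figure D2:**
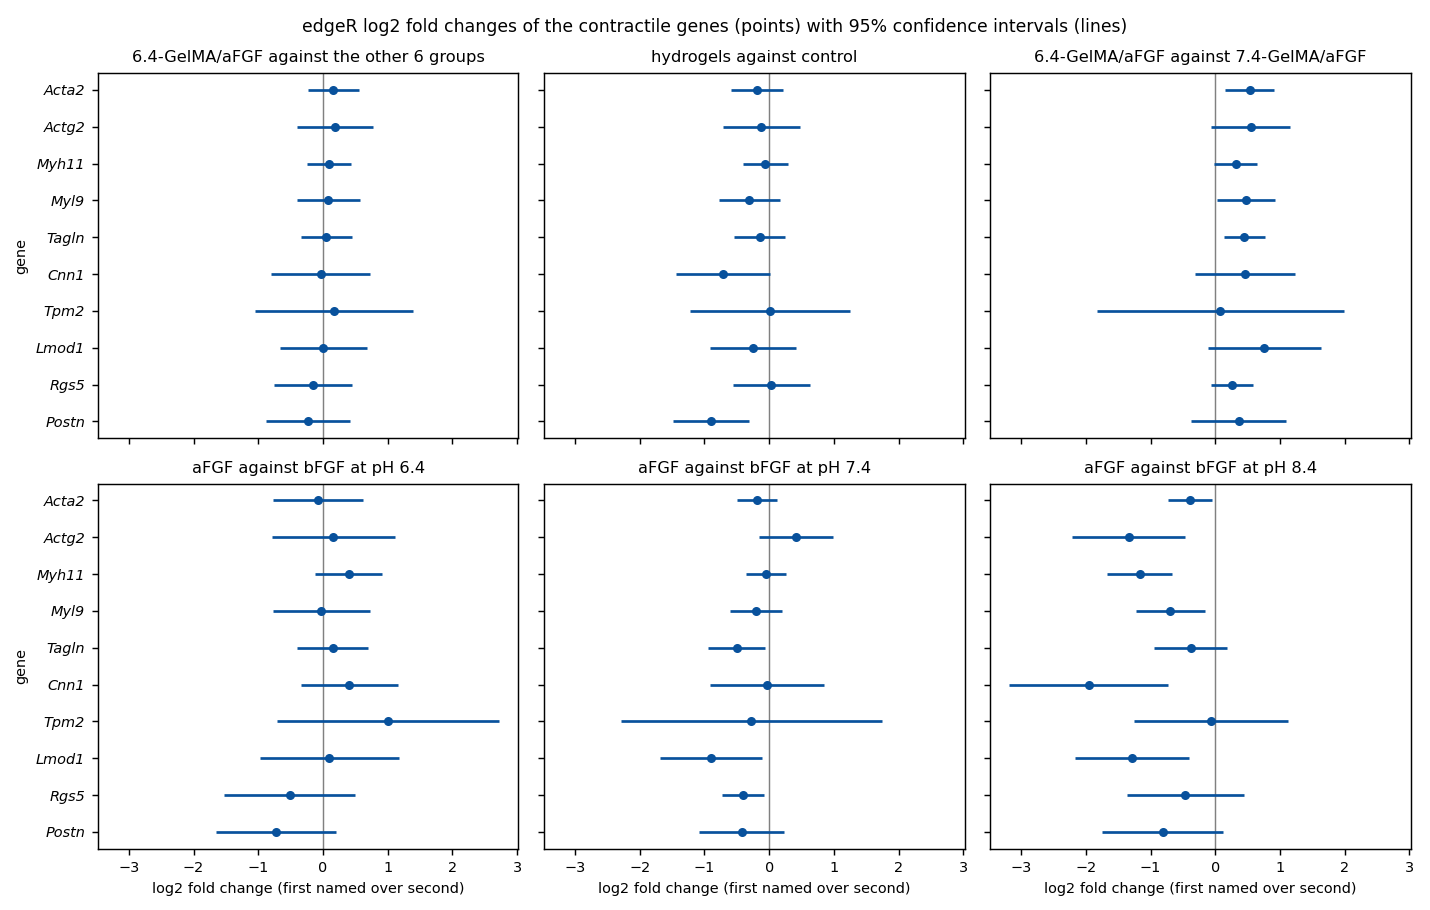
Log2 fold changes of the 10 genes in 6 comparisons from edgeR (points) with 95% confidence intervals (lines), as the first named group over the second. At pH 8.4 the intervals of Cnn1, Actg2, Lmod1, Myh11, Myl9 and Acta2 lay below 0, and no gene passed the adjusted threshold in any panel.

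Related gene lists at pH 8.4 were on the same side. Of 18 vessel smooth muscle and pericyte genes tested, 16 were below 0, with a median log2 fold change of -0.64, against -0.76 for the 10 genes and -0.01 over all genes. Among them, and named after their values were seen, Notch3, a receptor of mural cells, was at 71.1, 68.7 and 102 CPM with bFGF and at 45.1, 46.8 and 46.7 CPM with aFGF. Abcc9, a channel subunit of pericytes, was at 50.4, 38.8 and 55.9 CPM with bFGF and at 26.2, 27.7 and 17.4 CPM with aFGF. For both genes the groups did not overlap, beside 2121 of 15811 genes (13.4%) that were higher in each bFGF library at this pH. Of the same list, Kcnj8, Cspg4 and Pdgfrb did not overlap either. Higd1b overlapped, at 1.64, 1.37 and 3.43 CPM with bFGF and 2.55, 0.94 and 0.22 CPM with aFGF. Des overlapped as well, at 1133, 470 and 677 CPM with bFGF and 692, 805 and 380 CPM with aFGF. Mylk, the kinase that phosphorylates myosin light chains and so starts contraction, was at 78.8, 87.7 and 80.1 CPM in 8.4-GelMA/bFGF and at 29.1 to 70.9 CPM in the other libraries. It was also named after its values were seen, and 32 of 15811 genes (0.202%) were above all the other 18 libraries in this group. The myofibroblast matrix list was below 0 for 19 of 21 genes (median -0.41). It was also below 0 for 20 of 21 at pH 6.4 (median -0.36) and for 18 of 21 at pH 7.4 (median -0.21). At pH 8.4 the list summed to 48700, 55820 and 87350 CPM with bFGF and to 59180, 51090 and 45980 CPM with aFGF, so the groups overlapped. The other contractile apparatus was split, with 11 of 20 genes below 0 (median -0.18), and regulators of the contractile programme were above 0 for 19 of 24 (median 0.20). None of the genes in these lists was called.

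Whether the growth factors differed in their change with pH was tested with an interaction term, which was added after the data had been seen. From pH 6.4 to pH 8.4, the log2 change of Myh11 with aFGF minus that with bFGF was -1.58 (SE 0.32, edgeR adjusted p = 0.522), and from pH 7.4 to pH 8.4 it was -1.14 (SE 0.26, adjusted p = 0.993). These differences were -1.55 (edgeR adjusted p = 0.611) and -1.24 (0.811) without the libraries that held genes of other organs. For Acta2, the log2 fold change of pH 6.4 over pH 7.4 with aFGF minus that with bFGF was 0.09 (SE 0.35, edgeR adjusted p = 0.967). No gene passed the adjusted threshold in any of these interactions, with or without the libraries that held genes of other organs.

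At pH 6.4, the log2 fold changes of aFGF over bFGF ranged from -0.73 (Postn) to 1.00 (Tpm2) among the 10 genes, and none was called, with 0 of 14994 genes called by edgeR (0%). Both values moved with 1 library, as Tpm2 was at -0.46 without 6.4-GelMA/aFGF replicate 3 and Postn at -0.35 without 6.4-GelMA/bFGF replicate 1. The interval of Acta2 was from -0.78 to 0.62. At pH 7.4, Tagln had a log2 fold change of -0.50 (adjusted p = 0.368), Lmod1 of -0.90 (0.368) and Rgs5 of -0.41 (0.361), and 0 of 15049 genes were called by edgeR (0%). The 3 genes had an unadjusted p under 0.05, beside 1960 genes in all (13%). Between 6.4-GelMA/bFGF and 7.4-GelMA/bFGF, 0 of the 10 genes and 0 of 14976 genes were called by edgeR (0%), with an unadjusted p under 0.05 for 0 of the 10 genes and for 1332 genes in all. At pH 6.4 none of the 10 genes had an unadjusted p under 0.05, beside 1223 genes in all. DESeq2 called 0 of the 10 genes in each of these 3 comparisons, and 119, 264 and 113 genes in all.

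Postn encodes periostin, a matrix protein of activated fibroblasts. It was at 2206, 1342 and 2068 CPM in the controls. With aFGF, Postn was at 916, 1288 and 672 CPM at pH 6.4, at 647, 1022 and 576 CPM at pH 7.4, and at 880, 667 and 604 CPM at pH 8.4. With bFGF, it was at 2316, 1595 and 870.0 CPM at pH 6.4, at 1180, 1080 and 769.5 CPM at pH 7.4, and at 912, 789.5 and 2144 CPM at pH 8.4. All 9 aFGF libraries lay below all 3 controls, which held for 277 of 15811 genes (1.75%) and was picked out after the values were seen. Of the 9 bFGF libraries, 3 lay above the lowest control.

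Across the hydrogels, the log2 fold change of Postn against control was -0.90 (95% confidence interval -1.49 to -0.31) with an edgeR adjusted p of 0.167, and 0 of the 10 genes were called beside 1 of 15811 genes in all (0.00632%). Of the 10 genes, Postn alone had an unadjusted p under 0.05, as did 2640 of all genes (16.7%). DESeq2 called 0 of the 10 genes and 170 genes in all. Cnn1 was at -0.71 (adjusted p = 0.302) and Acta2 at -0.18 (0.646), with intervals that include 0. The control libraries were far apart in their neutrophil genes, but not in their macrophage genes, which summed to 7492, 8928 and 8350 CPM. The 8 neutrophil genes summed to 1332, 9753 and 748 CPM in control replicates 1 to 3, and to 3364 CPM or more in every hydrogel library, with none at 0. Control replicate 2, the library with the high neutrophil sum, had the lowest Acta2, Tagln, Cnn1, Myh11, Myl9, Actg2, Lmod1 and Postn of the 3 controls. Without it, Postn was called at a log2 fold change of -1.10 (adjusted p = 0.0389), among 1189 of 16069 genes in all. For Acta2, the mean log2 CPM was 7.96 ± 0.52 (SD, n = 3) in the controls and 7.82 ± 0.34 (SD, n = 18) in the hydrogels. The two-sided exact permutation p was 0.572. This difference of -0.13 became -0.43 without control replicate 2 and 0.04 without control replicate 1. Genes of fat and hair follicles were mostly on the lower side in the hydrogels. Adipocyte genes were below 0 for 8 of 8 (median log2 fold change -1.51, 5 at an unadjusted p under 0.05), and summed to 9665, 765 and 5143 CPM in the controls and to 466 to 7421 CPM in the hydrogels. Of 5 hair follicle genes tested, 4 were below 0 (median -1.27, 3 under 0.05). None of these genes was called, and the part of neutrophils, fat and hair follicles in these values was not tested.

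Rgs5, a regulator of G protein signalling in pericytes, was spread most in a pair of the bFGF groups. It was at 268, 215 and 74.4 CPM in 6.4-GelMA/bFGF and at 150.3, 114 and 271 CPM in 8.4-GelMA/bFGF. The controls were at 155.5, 131 and 129.9 CPM and the aFGF libraries at 78.5 to 153 CPM. The highest Rgs5 library of the series was 8.4-GelMA/bFGF replicate 3, which held the lowest Myh11, Cnn1, Actg2 and Lmod1 of its group.

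Most pairs of the 10 genes varied in the same direction, some of them weakly, such as Cnn1 with Rgs5 (r = 0.12). Over the 21 libraries, Pearson's r of log2 CPM was above 0 for 42 of 45 pairs, with a median of 0.59. The pairs below 0 were all with Tpm2. At an adjusted permutation p under 0.05 (100000 resamples), 27 of 45 pairs were correlated, none of them with Tpm2. Whether the genes form separate groups was not tested. The actin of the stain went with the stress fibre genes. Pearson's r was 0.89 between Acta2 and Myl9 (Spearman's rho 0.87, adjusted permutation p = 0.00015 for r and 0.00027 for rho), and 0.90 without the 2 libraries farthest from the median of Acta2. It was 0.78 between Acta2 and Tagln (rho 0.81, adjusted permutation p = 0.00045 and 0.00027), and 0.78 without the 2 farthest libraries. These genes also went with Rgs5 and Postn. Acta2 had an r of 0.74 with Rgs5 (rho 0.71, adjusted permutation p = 0.00045 and 0.00198, 0.70 without the 2 farthest) and of 0.71 with Postn (rho 0.68, adjusted permutation p = 0.00135 and 0.00283, 0.67 without the 2 farthest).

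Among the genes of mature smooth muscle, Myh11 had an r of 0.86 with Cnn1 (rho 0.86, adjusted permutation p = 0.00015 and 0.00027), which was 0.70 without the 2 libraries farthest from the median of Cnn1. With Actg2 it was 0.83 (rho 0.78, adjusted permutation p = 0.000225 and 0.000525), and 0.71 without the 2 farthest. The light chain gene Myl9 also went with Myh11 (r = 0.69, rho 0.74, adjusted permutation p = 0.00135 and 0.00169, 0.74 without the 2 farthest), as did Tagln (r = 0.64, rho 0.56, adjusted permutation p = 0.00346 and 0.0168, 0.51 without the 2 farthest). Several pairs of a stress fibre gene with a gene of mature smooth muscle had r above some pairs within mature smooth muscle and below others. Pearson's r was 0.68 between Myl9 and Lmod1, 0.67 between Myl9 and Actg2, 0.67 between Tagln and Lmod1, and 0.65 between Acta2 and Actg2. Within mature smooth muscle, Cnn1 had an r of 0.76 with Actg2. Lmod1 had an r of 0.72 with Myh11 and of 0.61 with Actg2 and with Cnn1. Acta2 and Myh11 had an r of 0.53 (rho 0.63, adjusted permutation p = 0.0184 and 0.00554, 0.65 without the 2 farthest). Myh11 had an r of 0.21 with Postn (rho 0.35, adjusted permutation p = 0.469 and 0.177), which was 0.57 without the 2 libraries farthest from the median of Myh11. These pairs were picked out after the values were seen, and differences between coefficients were not tested.

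**Figure D3:**
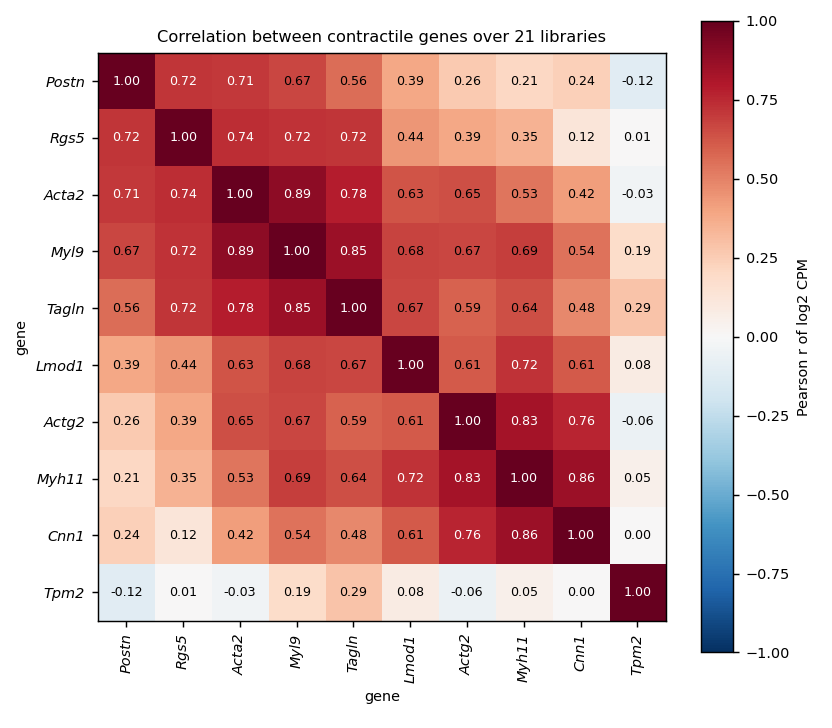
Pearson r of log2 CPM over 21 libraries for each pair of the 10 genes, as a matrix of genes with red for positive and blue for negative values. Acta2, Myl9 and Tagln had r of 0.78 to 0.89 with each other, Myh11 and Cnn1 of 0.86, and Tpm2 had r between -0.12 and 0.29 with every other gene of the list.

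Since groups differ in their means, the same pairs were taken again as deviations from the group means. Then r was above 0 for 39 of 45 pairs, and it was -0.11 for Cnn1 with Rgs5 and with Postn. Of the 45 pairs, 11 passed, among them Acta2 with Myl9 (r = 0.87, adjusted permutation p = 0.0179), Myh11 with Cnn1 (0.73, 0.0131) and Rgs5 with Postn (0.82, 0.0018). Without the libraries that held genes of other organs, 29 of 45 pairs passed.

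The genes most like each member were named over all 15801 other genes that passed the filter, with r as a description over 21 libraries that share depth and tissue make-up. Acta2 was most like Gask1b (0.93), Fkbp9 (0.91), Cav1 (0.87), Slc9a3r2 (0.87) and Col6a1 (0.87). Postn was most like Col6a1 (0.90), Lrrc15 (0.89), Anpep (0.88), Mfap2 (0.88) and Mfap4 (0.87), and Rgs5 was most like P4ha3 (0.88), Col1a2 (0.87), Mmp2 (0.86), Mfap2 (0.85) and Pcolce (0.85). Several of these encode collagens or proteins that bind or process matrix. For Myh11 the closest genes were Mylk (0.84), Foxo1 (0.84), Ppp1r9a (0.80), Mical3 (0.79) and Pgm5 (0.78). Rgs5 had an r of 0.78 with the mean log2 CPM of the matrix list and of 0.65 with that of the vessel smooth muscle and pericyte list. Among single pericyte genes its r was 0.79 with Higd1b and Kcnj8, but 0.31 with Pdgfrb and 0.27 with Cspg4.

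**Figure D4:**
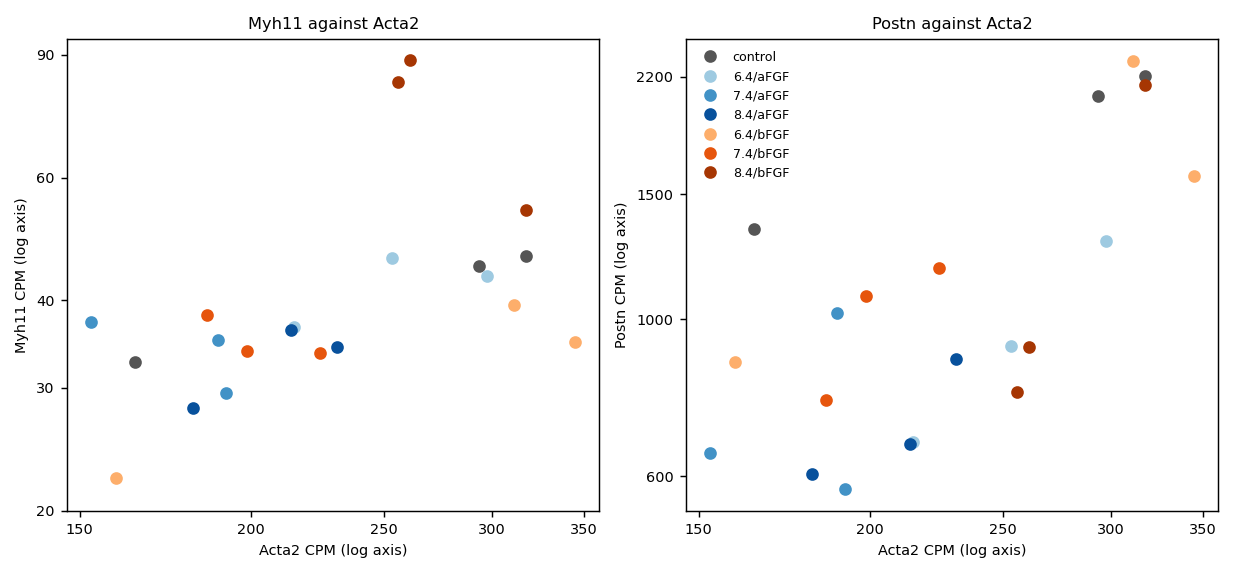
CPM of Myh11 (left) and Postn (right) against CPM of Acta2 on log axes, with 1 point per library coloured by group. In 8.4-GelMA/bFGF, Myh11 was at 53.9 to 88.3 CPM at Acta2 levels of 256 to 318 CPM, where other libraries with Acta2 at 253 CPM or more had Myh11 at 34.8 to 46.4 CPM.

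Set against each other per length, Acta2 exceeded Myh11 by a ratio of FPKM of 7.83, 8.24 and 15.6 in 8.4-GelMA/bFGF. In the controls this ratio was 18.1, 13.3 and 17.3, and over all groups but 8.4-GelMA/bFGF it ranged from 10.9 to 26.2. The ratio was lowest in replicates 1 and 2 of 8.4-GelMA/bFGF, while replicate 3 lay among the other libraries. The highest values, 20.9 and 26.2, were in replicates 1 and 2 of 6.4-GelMA/bFGF.

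Tpm2, the β-tropomyosin, had the widest range of the 10 genes. It was at 303, 336 and 641.5 CPM in the controls, at 181, 172 and 1077 CPM in 6.4-GelMA/aFGF, and at 768.5, 812 and 78.2 CPM in 7.4-GelMA/bFGF. Libraries of 1 group were thus far apart, and the range over the series was 13.8-fold, from 7.4-GelMA/bFGF replicate 3 to 6.4-GelMA/aFGF replicate 3. Tpm2 is also a gene of striated muscle. Its r with the mean log2 CPM of 15 skeletal muscle genes was 0.99 over the 21 libraries, and the genes closest to it were Tnni2, Tnnc2, Tnnt3, Acta1 and Trim72 (0.99 each), which were named after their values were seen. The 15 muscle genes summed to 1254, 1113 and 20530 CPM in 6.4-GelMA/aFGF and to 17610, 18460 and 324 CPM in 7.4-GelMA/bFGF, in the same order as Tpm2. For 6.4-GelMA/bFGF against 7.4-GelMA/bFGF, Tpm2 had a log2 fold change of -1.18 (edgeR adjusted p = 0.646), which was -0.16 once the mean of the muscle genes was in the fit. Without 7.4-GelMA/bFGF replicate 3, the library with the lowest muscle level, it was called at -1.69 (adjusted p = 0.0067), among 278 genes in all.

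**Figure D5:**
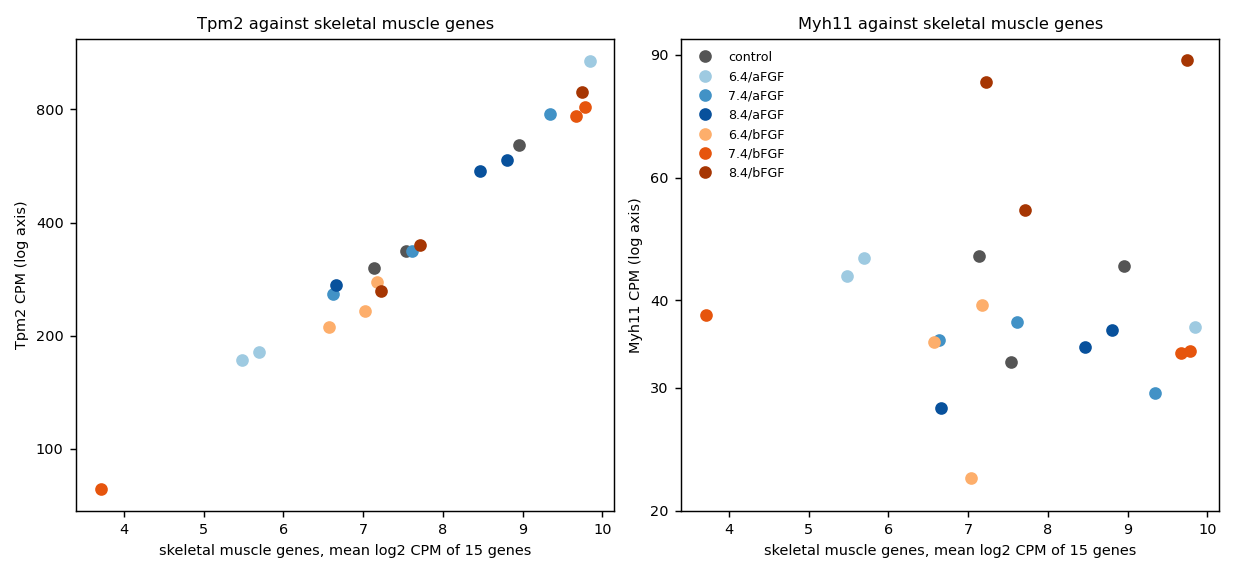
CPM of Tpm2 (left) and Myh11 (right) on a log axis against the mean log2 CPM of 15 skeletal muscle genes, with 1 point per library coloured by group. Tpm2 went with the muscle score over the 21 libraries (r = 0.99), and Myh11 had an r of 0.05 with it.

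The actins share most of their coding sequence, and how reads that match several of them were counted is not given in the sources used here, so levels of Acta2 and Actg2 are uncertain to that extent. The skeletal actin Acta1 ranged from 119 to 5943 CPM between libraries. Neither Acta2 (r = -0.05) nor Actg2 (r = -0.07) went with it.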

How the data were processed

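RNA from Day 4 wounds was sequenced by the authors after TRIzol extraction with a stranded mRNA kit. Per the file headers and values, the authors deposited raw counts per gene (18806 genes, not normalized) and FPKM values made from the same counts, with a fixed length per gene. The submitters' processing notes name GRCm39. How reads were aligned, counted and assigned to strands is not given in the sources used here. No genome of that build was used, so no coordinates or sequences are printed. The depth, 34362558 to 37817833 counts per library, left 143 counts or more per library for every gene of the list but Lmod1 (53 or more).

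The 10 genes and the lists they are set beside were chosen with earlier results of these data known. The named genes are the 10 members, the genes called or the most abundant of a list, and the 5 genes most like Acta2, Myh11, Rgs5 and Postn; others were named after their values were seen.

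Counts were fitted in edgeR 4.0.16 (R 4.3.3) with TMM normalization, the default filter by group, the quasi-likelihood test and a prior count of 2 for log2 CPM. Fits used the libraries compared, or all 21 with a mean per group, and p-values were adjusted over all genes tested. Alternatives were DESeq2 1.42.0, limma 3.58.1 on log2(FPKM + 1) or log2(FPKM + 0.1) for genes with a mean FPKM of at least 1, RLE size factors, every gene with a count, genes with 10 or more counts in each library, a robust fit, a replicate block, the mean log2 CPM of the skeletal muscle list as a covariate, 1 fit over all 21 libraries, no fold change threshold, and leaving out libraries. Single values were tested by exact permutation over all assignments of the libraries (numpy 2.4.6). Correlations were tested with 100000 resamples, with ranks for Spearman's rho from scipy 1.17.1. The fits were tested on simulated data. The labels name no batch. Libraries of 1 group differed by more than counting noise. The labels call them biological replicates.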

Additional observations from a re-analysis of the deposited data

How the results depend on the processing

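The count of the 10 genes called was 0 under every alternative run for 6.4-GelMA/aFGF against the other 6 groups, for 6.4-GelMA/aFGF against 7.4-GelMA/aFGF, and for aFGF against bFGF at pH 6.4 and at pH 7.4. DESeq2 called 5 of the 10 genes for any difference among the 7 groups and 4 at pH 8.4, and the skeletal muscle covariate called 1 at pH 8.4. Leaving out 1 library gave 0 to 3 genes among the 7 groups (3 without control replicate 2), 0 to 1 for hydrogels against control, and 0 to 1 for 6.4-GelMA/bFGF against 7.4-GelMA/bFGF. The cause was not tested. For aFGF against bFGF at pH 6.4, the Tpm2 fold change of 1.00 ranged from -0.456 (without 6.4-GelMA/aFGF replicate 3) to 1.39. The Acta2 difference of hydrogels against control ranged from -0.431 to 0.0432 on the log2 scale. As deviations from group means, 11 pairs were correlated in place of 27. Over all genes, DESeq2 called 2050 genes in place of 18 among the 7 groups, 955 in place of 1 at pH 8.4, 170 in place of 1 for hydrogels, and 264, 119, 113, 20 and 9 in place of 0 elsewhere. Without control replicate 2, 864 genes were called among the 7 groups and 1189 for hydrogels. At pH 8.4, 231 genes were called with the muscle covariate, 172 without 8.4-GelMA/aFGF replicate 3 and 10 in the fit of all 21 libraries. Deviations from group means in libraries of the same replicate number had correlations from -0.638 to 0.423 (median 0.0094). These values do not settle whether the numbers pair libraries, and the labels give no pairing. The replicate block called 0 of the 10 genes in every comparison. Of 70 fold changes of the 10 genes, 26 changed sign under at least 1 alternative or left-out library.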
